A study of Mus musculus with 16 samples.

Results

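Transforming growth factor beta (TGF-beta) was followed in the pressure-loaded mouse heart through 10 genes chosen by name. They were the ligands Tgfb1, Tgfb2 and Tgfb3, the latent binding proteins Ltbp1, Ltbp2, Ltbp3 and Ltbp4, and the receptors Tgfbr1, Tgfbr2 and Tgfbr3. They made up 10 of the 55573 genes in the deposited count table, and all 10 were among the 16857 genes that passed edgeR's expression filter. The heart apex of 16 male mice was taken 4 weeks after surgery, and its poly(A) RNA was sequenced as single-end reads of 50 bases. All mice were wild type and had received AAV9, an adeno-associated virus that reaches the heart, under the skin on postnatal day 1. The virus carried GFP or full-length Cardinal, a long noncoding RNA (mouse gene Gm12295), in each case behind the chicken cardiac troponin T promoter, which drives a transgene in cardiomyocytes. With either virus 4 mice had sham surgery and 4 had transverse aortic constriction (TAC), which raises the pressure the left ventricle pumps against. Surgery was timed by body weight, and the age at surgery and the litters are not given in the sources used here.

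TGF-beta is secreted in a latent form, in which the mature ligand stays wrapped in its own propeptide. The propeptide is usually linked to a latent binding protein that anchors it to fibronectin and fibrillin fibres in the matrix, until integrins, proteases or matrix proteins set the ligand free. The free ligand joins the kinases Tgfbr2 and Tgfbr1, which phosphorylate Smad2 and Smad3, while Tgfbr3 (betaglycan) binds the ligand without signalling by itself and is needed above all for Tgfb2. In the heart the pathway is known for turning fibroblasts into cells that lay down collagen. In RNA from whole tissue, fewer cells of a type and less RNA per cell cannot be told apart.

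The sequences before the start sites of 3 genes are shown because these genes had the largest differences between AAV9-GFP TAC and sham hearts: Ltbp2, the largest increase of all members, Tgfb2, the largest among the ligands, and Ltbp1, the only member that passed the test with a lower value. Each sequence is 200 bases long, from 250 to 51 bases before the start, on the gene's strand, and comes from RefSeq on GRCm38.p6. Capitals mark matches on either strand to CAGAC (the SMAD box, read GTCTG on the other strand), GGAAAA (the NFAT core, TTTTCC), TGACGTCA (the CRE) and GGGCGG (the Sp1 box, CCGCCC), and no match overlapped another. Tgfb2 lies at chr1:186706040-186706239 on the minus strand, Ltbp1 at chr17:75005279-75005478 on the plus strand, and Ltbp2 at chr12:84876542-84876741 on the minus strand.
Tgfb2: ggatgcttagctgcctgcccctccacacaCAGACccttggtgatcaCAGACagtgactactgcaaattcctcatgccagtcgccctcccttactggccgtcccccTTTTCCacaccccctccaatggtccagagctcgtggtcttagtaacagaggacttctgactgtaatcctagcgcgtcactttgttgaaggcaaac
Ltbp1: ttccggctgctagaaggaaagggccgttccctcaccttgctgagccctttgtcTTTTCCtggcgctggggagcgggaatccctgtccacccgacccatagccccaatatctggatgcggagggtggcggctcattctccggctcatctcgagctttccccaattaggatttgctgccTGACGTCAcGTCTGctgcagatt
Ltbp2: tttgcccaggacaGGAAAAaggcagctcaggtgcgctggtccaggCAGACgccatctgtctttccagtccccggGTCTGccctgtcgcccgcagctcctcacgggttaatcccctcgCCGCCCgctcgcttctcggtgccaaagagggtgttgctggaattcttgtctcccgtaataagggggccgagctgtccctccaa
All 3 sequences held the SMAD box, to which the Smad proteins of the pathway bind, and all 3 held the NFAT core, the site of a factor that calcineurin switches on. Among the 12 start sites of the 8 members in the RefSeq table, 7 held the SMAD box, and 35.8% of all 32851 start sites did. The NFAT core stood in 3 of the members' 12 windows, which are the 3 shown, and was missing at a second start site of Ltbp1. It stood in 17.1% of all start sites, the Sp1 box in 24.6% and the CRE in 0.828%, and Ltbp1 was the only member with a CRE. The Sp1 box stood in 6 of the members' 12 windows, among them all those of Ltbp4. The windows at start sites 2 and 3 of Ltbp4 overlap, so the 12 windows are not all separate. The AP-1 site TGANTCA, present before 5.57% of all start sites, and the TEAD site GGAATG, present before 10.7%, matched none of the members' 12 windows. A match of this kind describes the letters and not binding. Tgfb3 and Tgfbr3 had no entry.

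The libraries held 16441997 to 21904589 counts in all, and levels are given as CPM (counts scaled to a common library size after TMM normalization). A floor of 3 counts, which takes in counting error alone, was worth 0.126 to 0.195 CPM. Mice of the same group differed beyond sampling noise (chi-square over degrees of freedom of 5.52 to 16.4), so all 16 were kept as separate samples. Cardinal was between 26.2 and 40.0 CPM in AAV9-Cardinal sham hearts and between 18.3 and 93.9 CPM in AAV9-Cardinal TAC hearts, against 3.42 to 7.24 CPM in all AAV9-GFP hearts, so every library fitted its virus label. Replicate 1 of AAV9-Cardinal TAC stood apart, with 93.9 CPM of Cardinal where the other mice of the group had at most 20.6 CPM, and the members' calls that rest on it are given with and without it. The 8 cardiomyocyte markers summed to 35490 CPM or more in every mouse, and the 8 lymphocyte markers to at most 1.30 CPM, with Nkg7 at 0 in every mouse. Markers of red blood cells summed to between 348 and 1042 CPM, and those of atrial cardiomyocytes, mesothelium and platelets to at most 16.2, 13.1 and 15.0 CPM.

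In sham hearts of AAV9-GFP, the matrix-binding protein Ltbp4 was by far the most abundant member per length of transcript. Levels between genes are compared as CPM per kilobase of merged exons, and on that scale Ltbp4 stood at 34.6 ± 2.70 (SD, n = 4) and Tgfbr3 followed at 7.23 ± 0.980. Tgfbr2 at 4.59, Ltbp1 at 4.19, Tgfb3 at 3.85 and Tgfb1 at 3.44 CPM per kilobase formed a run in which each gene overlapped the next among the mice. Below them came Ltbp3 at 2.72 and Tgfbr1 at 2.41, which overlapped, then Tgfb2 at 1.72 and, far lower, Ltbp2 at 0.146 CPM per kilobase. The order in AAV9-Cardinal sham hearts was the same, from 33.9 for Ltbp4 to 0.138 for Ltbp2.

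In AAV9-GFP hearts all 3 ligands rose after TAC, most of all Tgfb2, the ligand that depends on betaglycan. Tgfb2 (ENSMUSG00000039239, chr1:186622792-186705989 on GRCm38, minus strand) was at 8.47, 9.46, 10.3 and 11.5 CPM in the sham hearts. It was at 18.6, 25.8, 13.7 and 18.1 CPM in the TAC hearts, and each TAC mouse was above each sham mouse. The group means were 9.94 ± 1.30 and 19.1 ± 5.00 CPM (SD, n = 4 each), a ratio of 1.92 and a log2 fold change of 0.94 with a standard error of 0.190 (adjusted p = 0.00316, edgeR quasi-likelihood test). Replicate 3 was the highest TAC mouse, and without it the log2 fold change was 0.76 (adjusted p = 0.0119).

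Tgfb1 (ENSMUSG00000002603, chr7:25687002-25705077, plus strand), the ligand best known from injured tissue, was at 16.5, 18.4, 20.04 and 14.5 CPM in sham and at 18.9, 25.6, 24.2 and 23.6 CPM in TAC hearts of AAV9-GFP. The lowest TAC mouse lay inside the sham range, and the others lay above it. The log2 fold change was 0.41 with a standard error of 0.114 (adjusted p = 0.0217), while an exact two-sided permutation test of mean log2 CPM gave p = 0.057. Tgfb3 (ENSMUSG00000021253, chr12:86056745-86079041, minus strand), which is tied above all to palate and lung development, was at 12.2, 14.2, 14.4 and 11.3 CPM in sham and at 15.99, 20.5, 16.6 and 20.2 CPM in TAC hearts. Its groups did not overlap, and its log2 fold change was 0.49 with a standard error of 0.134 (adjusted p = 0.0190). Both calls were near the threshold: Tgfb1 and Tgfb3 each missed it without sham replicate 1, sham replicate 4, TAC replicate 3 or TAC replicate 7 of AAV9-GFP, with adjusted p between 0.05 and 0.0739 for Tgfb1 and between 0.0535 and 0.0647 for Tgfb3. Antisense genes overlap Tgfb2 and Tgfb3, and since the use of strand in the counting is not given, their reads could not be told apart, but the partners held at most 1 count in any mouse.

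The latent binding proteins moved in opposite directions: Ltbp2, Ltbp3 and Ltbp4 rose after TAC and Ltbp1 fell. Ltbp2 (ENSMUSG00000002020, chr12:84783212-84876532, minus strand) is the member of the family that binds fibrillin but, unlike its relatives, does not carry latent TGF-beta. It was at 1.04, 1.15, 1.42 and 1.17 CPM in sham hearts of AAV9-GFP, from 22 to 29 counts per mouse. In TAC hearts it was at 8.87, 18.0, 9.80 and 9.57 CPM, from 207 to 428 counts. The TAC mice were all far above the sham mice, and replicate 3 was the highest of them by a wide gap. The ratio of the means was 9.65 and the log2 fold change 3.27 with a standard error of 0.399 and a 95% confidence interval of 2.42 to 4.12 (adjusted p = 8.31e-05). Without replicate 3 it was 2.97 (adjusted p = 0.00027). An antisense gene, D030025P21Rik, covers 9.34% of its exon bases and held at most 2 counts in a mouse.

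Ltbp1 (ENSMUSG00000001870, chr17:75005568-75392512, plus strand), which carries the latent ligand into fibronectin and fibrillin fibres, was at 45.5, 47.1, 41.6 and 44.8 CPM in the sham hearts and at 30.9, 25.0, 30.6 and 28.8 CPM in the TAC hearts. The groups were well separated, and the ratio of the means was 0.644. The log2 fold change was -0.64 with a standard error of 0.069 (adjusted p = 3.63e-05). Ltbp1 was the only member that passed the test with a lower value, and on the scale per kilobase it moved from the fourth place among the 10 genes to the ninth, from 4.19 to 2.70.

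Ltbp4 (ENSMUSG00000040488, chr7:27305136-27337692, minus strand), which carries Tgfb1 and takes part in elastic fibre assembly, was at 201, 224, 227 and 243 CPM in sham hearts and at 306, 307, 315 and 323 CPM in TAC hearts. All TAC mice were above all sham mice, and they lay closer together than the sham mice did. The log2 fold change was 0.48 with a standard error of 0.066 (adjusted p = 0.0002). Ltbp3 (ENSMUSG00000024940, chr19:5740904-5758532, plus strand), which also carries the latent ligand, was at 25.7, 25.1, 25.0 and 23.0 CPM in sham and at 28.5, 33.7, 29.4 and 29.8 CPM in TAC hearts. Its change was the smallest of the 4 but without overlap, with a log2 fold change of 0.30 and a standard error of 0.075 (adjusted p = 0.0126).

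**Figure D1:**
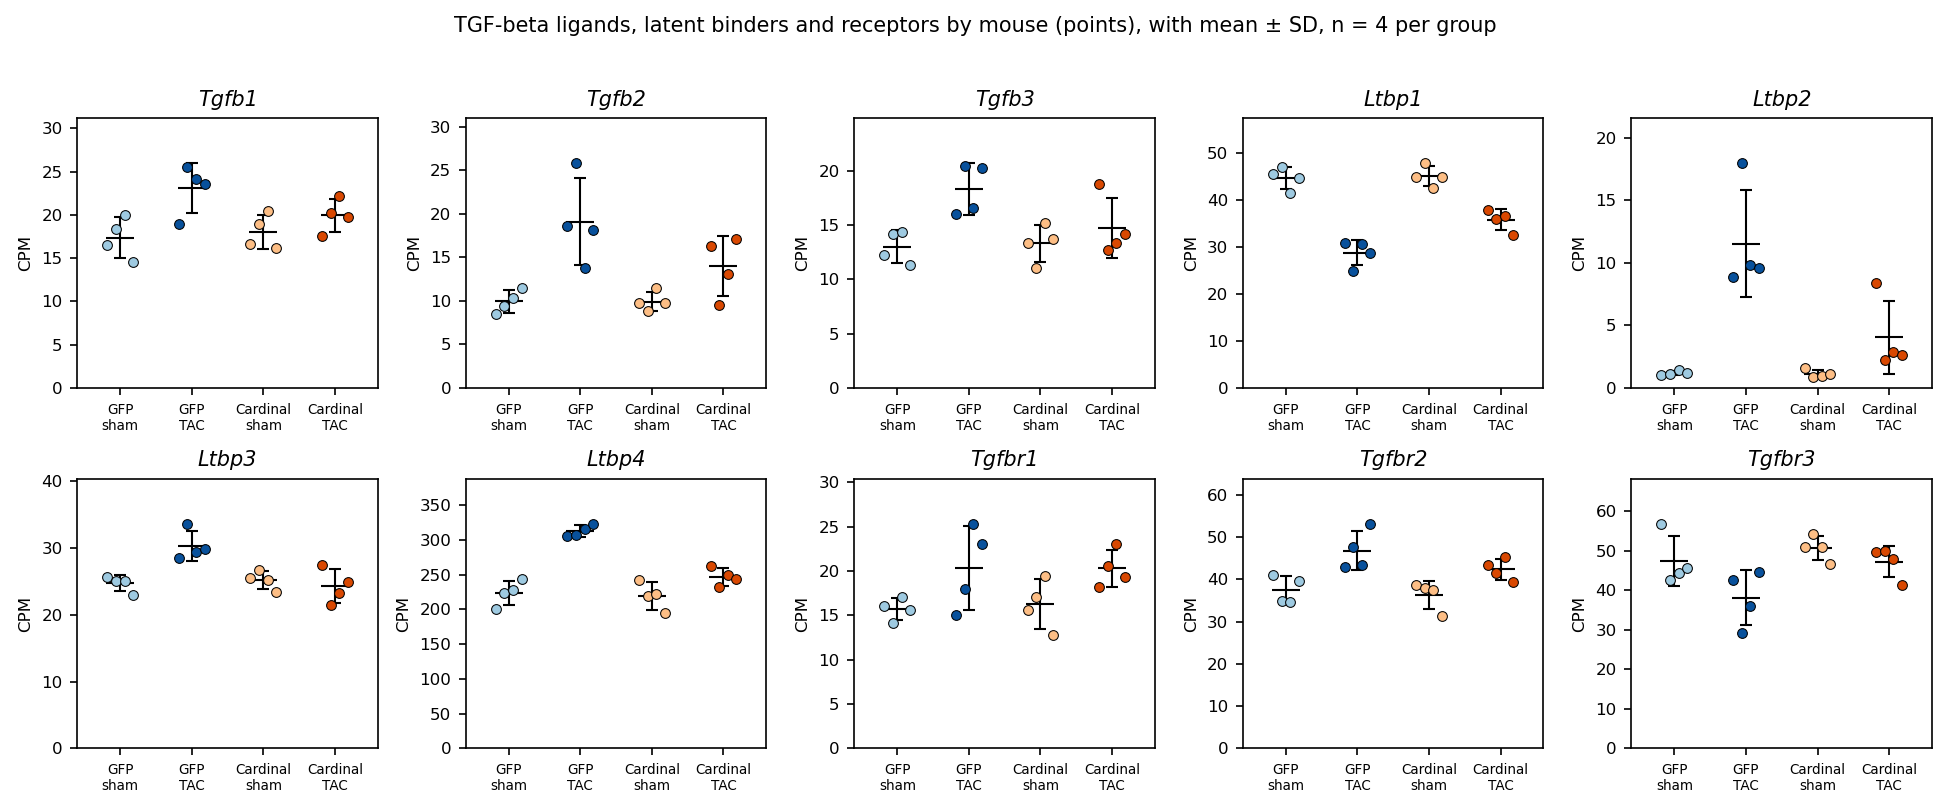
CPM of each of the 10 members in every mouse, in a panel per gene with its own axis, for sham and TAC hearts with either virus. Ltbp1 is lower and Ltbp2, Ltbp3 and Ltbp4 are higher in all 4 AAV9-GFP TAC mice than in any AAV9-GFP sham mouse, and in AAV9-Cardinal TAC hearts replicate 1 lies apart for Ltbp2 at 8.41 CPM.

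Among the receptors only Tgfbr2 passed the test. Tgfbr2 (ENSMUSG00000032440, chr9:116084293-116175360, minus strand), the kinase that binds the ligand, was at 41.1, 34.9, 34.5 and 39.6 CPM in sham and at 43.0, 47.6, 43.5 and 53.2 CPM in TAC hearts of AAV9-GFP. The groups did not overlap, although the lowest TAC mouse was close to the highest sham mouse. The log2 fold change was 0.32 with a standard error of 0.084 (adjusted p = 0.0164), and it missed the threshold without sham replicate 2, sham replicate 3 or TAC replicate 7 of AAV9-GFP, with adjusted p between 0.053 and 0.0562.

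Tgfbr1 (ENSMUSG00000007613, chr4:47353222-47414931, plus strand), the kinase that phosphorylates the Smads, was at 15.99, 14.2, 17.1 and 15.6 CPM in sham and at 15.0, 17.9, 25.3 and 23.0 CPM in TAC hearts. Its TAC mice spread widely, and the lowest lay within the sham range. The log2 fold change was 0.37 with a 95% confidence interval of 0.05 to 0.69 (adjusted p = 0.107), and it was 0.50 without TAC replicate 1 (adjusted p = 0.0209). Tgfbr3 (ENSMUSG00000029287, chr5:107106570-107289629, minus strand) was at 56.8, 42.6, 44.4 and 45.5 CPM in sham and at 42.5, 29.2, 35.9 and 44.6 CPM in TAC hearts. The groups overlapped, with a log2 fold change of -0.32 and a 95% confidence interval of -0.57 to -0.06 (adjusted p = 0.0839). Without TAC replicate 7 the value was -0.40 (adjusted p = 0.042).

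In all, 8 of the 10 members passed the test in AAV9-GFP hearts, 7 higher and 1 lower, where 17.4% of all genes tested did, 8.49% higher and 8.92% lower. The groups of 7 members did not overlap, against 20.3% of all genes, and all 10 had an unadjusted p under 0.05, against 29.9%. The median log2 fold change was 0.39 over the members and 0.005 over all genes tested.

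**Figure D2:**
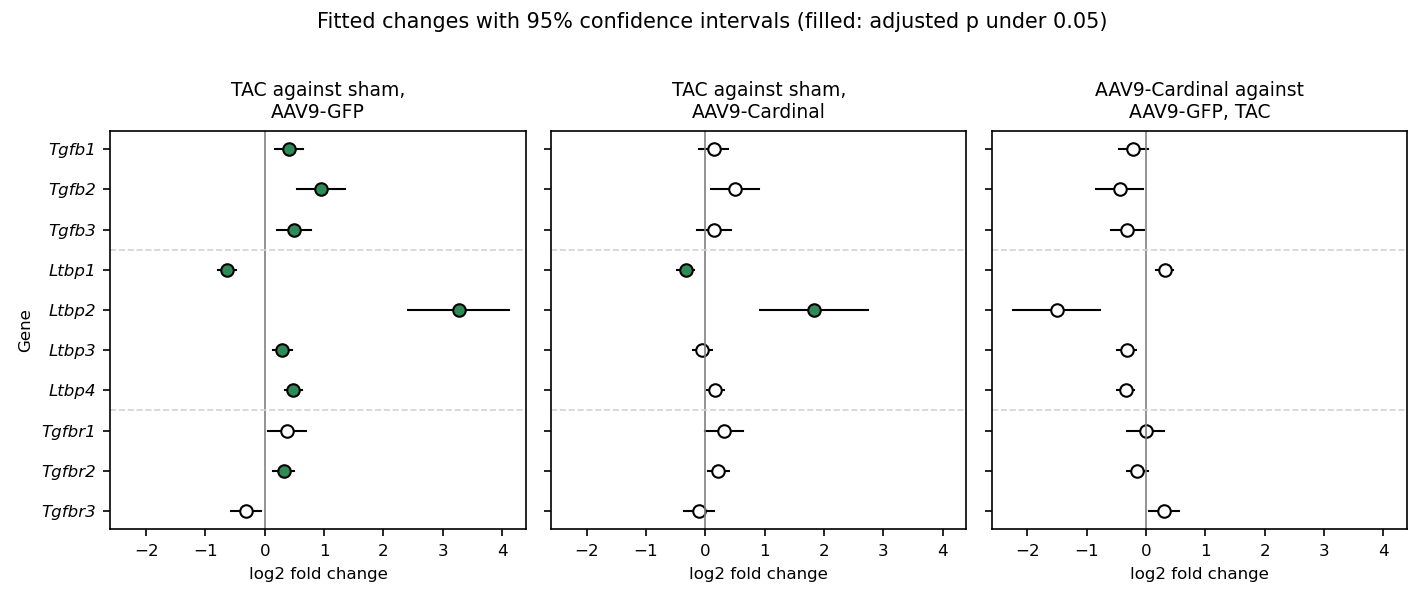
Log2 fold change of each member with its 95% confidence interval for TAC against sham under each virus and for AAV9-Cardinal against AAV9-GFP after TAC, from the edgeR fit of all 16 mice. Under AAV9-GFP the log2 fold changes of the 8 members that passed the test range from Ltbp1 at -0.64 to Ltbp2 at 3.27. Under AAV9-Cardinal only Ltbp1 at -0.33 and Ltbp2 at 1.83 passed.

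Shares of Ltbp1, Ltbp2, Ltbp4, Tgfbr2 and Tgfbr3 within their roles were without overlap between AAV9-GFP sham and TAC hearts. The shares of Ltbp3, of Tgfbr1 and of each ligand overlapped. Summed over the latent binding proteins, the level per kilobase was 41.7 ± 2.54 in AAV9-GFP sham and 55.9 ± 1.12 in AAV9-GFP TAC hearts (SD, n = 4), and Ltbp4 made up 83.0% ± 1.49 and 86.7% ± 0.993 of it. The share of Ltbp1 was 10.1% ± 0.889 in sham and 4.83% ± 0.489 in TAC hearts, with no overlap between 9.27 to 11.1% and 4.19 to 5.30%. Ltbp2 made up 0.351% and 2.53% of the sum. The ligands together were at 9.01 ± 0.865 and 13.3 ± 1.78 CPM per kilobase, with Tgfb2 at 19.2% ± 3.36 and 24.6% ± 4.20 of the sum. The receptors together were nearly level at 14.2 ± 1.38 and 14.6 ± 1.61, while the share of Tgfbr3 was 50.7% ± 2.08 in sham and 39.6% ± 5.11 in TAC hearts and did not overlap between 49.0 to 53.8% and 34.3 to 46.2%.

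**Figure D3:**
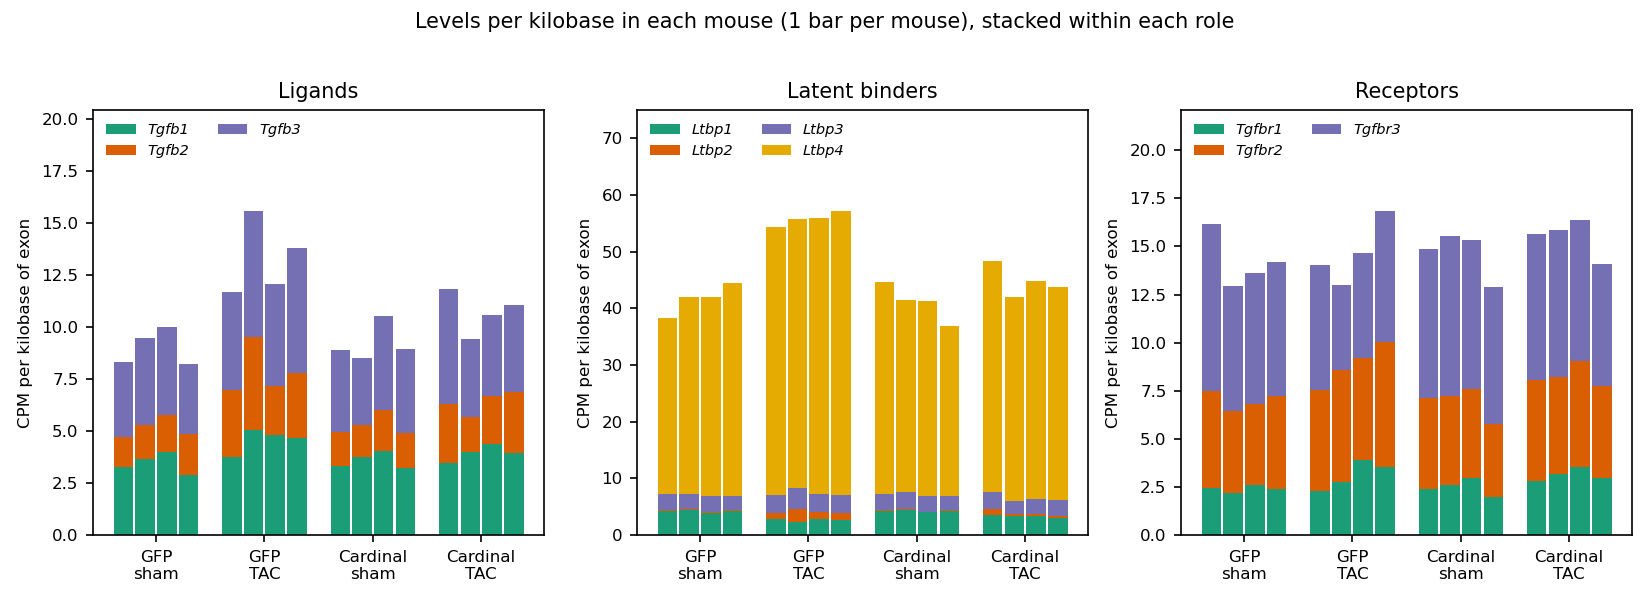
Level of the members in CPM per kilobase of merged exons, stacked by gene within each role, with 1 bar for each mouse in replicate order. The latent binders are dominated by Ltbp4 in every mouse and stand highest in the AAV9-GFP TAC mice (mean 55.9), where the layer of Ltbp1 is thinnest.

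In hearts that received AAV9-Cardinal, 2 of the 10 members passed the test after TAC, where 6.48% of all genes tested did: Ltbp2 rose (3.10% of all genes) and Ltbp1 fell (3.38% of all genes). Ltbp1 was at 45.0, 47.9, 42.7 and 45.0 CPM in sham and at 37.8, 36.1, 36.7 and 32.7 CPM in TAC hearts of AAV9-Cardinal, and the groups did not overlap. Its log2 fold change was -0.33 with a standard error of 0.069 (adjusted p = 0.0119). Ltbp2 was at 1.58, 0.883, 0.961 and 1.10 CPM in sham and at 8.41, 2.21, 2.89 and 2.67 CPM in TAC hearts, and replicate 1 was several times as high as the other TAC mice, all of which were above the sham mice. Its log2 fold change was 1.83 with a 95% confidence interval of 0.93 to 2.74 (adjusted p = 0.0213), and without replicate 1 it was 1.19 (adjusted p = 0.0237). Ltbp2 missed the threshold without AAV9-Cardinal sham replicate 2, 3 or 4, with adjusted p between 0.0503 and 0.0729.

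The other members did not pass the test in AAV9-Cardinal hearts. Tgfb2 was at 9.72, 8.83, 11.4 and 9.73 CPM in sham and at 16.3, 9.54, 13.1 and 17.1 CPM in TAC hearts, with a log2 fold change of 0.50 and a 95% confidence interval of 0.09 to 0.91 (adjusted p = 0.139). A single TAC mouse, replicate 4, lay in the sham range. Tgfbr2 was at 38.6, 37.8, 37.6 and 31.4 CPM in sham and at 43.3, 41.5, 45.2 and 39.3 CPM in TAC hearts, without overlap but with an adjusted p of 0.140 for a log2 fold change of 0.22. The log2 fold changes of the remaining 6 lay between -0.10 for Tgfbr3 and 0.32 for Tgfbr1, with adjusted p of 0.142 or more. Over the 10 members the median was 0.16, against -0.0005 over all genes tested, and 3 members had groups without overlap, against 13.7% of all genes.

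Compared directly after TAC, the hearts with AAV9-Cardinal and AAV9-GFP were without overlap in the latent binding proteins, but no member passed the test, where 0.101% of all genes did, 0.0237% higher and 0.0771% lower. At an unadjusted p under 0.05 there were 7 members, against 15.0% of all genes tested, and the same mice are used here as in the comparisons with sham. Each of the 4 latent binding proteins separated the 8 mice without overlap (6.77% of all genes did so). Exact two-sided permutation gave p = 0.029 for each, the smallest that 70 labelings allow. Any separated groups of this size give that p, so it restates the separation and is no further evidence. Ltbp4 was at 263, 233, 249 and 243 CPM with AAV9-Cardinal against 306 to 323 CPM in AAV9-GFP TAC hearts, which gave a log2 fold change of -0.34 with a 95% confidence interval of -0.48 to -0.20 (adjusted p = 0.0567). For Ltbp1, the values of 32.7 to 37.8 CPM with AAV9-Cardinal were above those of 25.0 to 30.9 CPM in AAV9-GFP TAC hearts, which gave a log2 fold change of 0.32 with an interval of 0.17 to 0.46 (adjusted p = 0.0752). Ltbp1 with AAV9-Cardinal thus lay between the AAV9-GFP TAC hearts and the sham hearts of both viruses, and so did Ltbp4 in relation to the group means.

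Ltbp2 was at 2.21 to 8.41 CPM with AAV9-Cardinal and at 8.87 to 18.0 CPM with AAV9-GFP, so that the highest AAV9-Cardinal mouse was just under the lowest AAV9-GFP mouse. The log2 fold change was -1.51 with a 95% confidence interval of -2.24 to -0.78 (adjusted p = 0.0781). For Ltbp3, AAV9-Cardinal TAC hearts were at 27.5, 21.5, 23.2 and 24.9 CPM and the log2 fold change was -0.32 with an interval of -0.48 to -0.16 (adjusted p = 0.0817). Replicate 1 of AAV9-Cardinal TAC was the highest mouse of its group for all 4 latent binding proteins. It was thus nearest to the AAV9-GFP TAC mice for Ltbp2, Ltbp3 and Ltbp4 and farthest from them for Ltbp1. Without replicate 1 all 4 passed the test: Ltbp1 at 0.29 (adjusted p = 0.0468), Ltbp2 at -2.15 (0.000391), Ltbp3 at -0.38 (0.0141) and Ltbp4 at -0.37 (0.0153). The value of Ltbp1 was then smaller than the 0.32 of the full fit. Without AAV9-GFP TAC replicate 3, which stood apart for Ltbp2, none passed, with Ltbp1 at 0.26 (adjusted p = 0.213), Ltbp2 at -1.21 (0.263), Ltbp3 at -0.27 (0.266) and Ltbp4 at -0.35 (0.183). The share of all genes that passed in either of these fits is not given here.

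Among the ligands and receptors, Tgfb2 had a log2 fold change of -0.44 (adjusted p = 0.271), Tgfb3 of -0.31 (adjusted p = 0.280) and Tgfb1 of -0.21 (adjusted p = 0.404) between AAV9-Cardinal and AAV9-GFP TAC hearts. The ligand groups overlapped in each case. Tgfbr3 was at 49.7, 49.9, 47.9 and 41.3 CPM with AAV9-Cardinal and its log2 fold change was 0.31 with an interval of 0.06 to 0.56 (adjusted p = 0.234). Tgfbr1 had the same mean of 20.3 CPM with either virus, and its log2 fold change of -0.0023 had an interval of -0.32 to 0.31, so that smaller differences in either direction could not be told from none.

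In sham hearts no difference between the viruses was detected. The absolute log2 fold change was at most 0.098 (Tgfbr3), every member's groups overlapped (2.36% of all genes had groups without overlap), and no member had an unadjusted p under 0.05 (2.59% of all genes). The adjusted p was 1 for each, where 0.0119% of all genes passed the test, 0.00593% higher and 0.00593% lower. The interval was wide for Ltbp2, from -1.12 to 0.97, since it rested on 17 to 35 counts per mouse.

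The TAC response itself was compared between the viruses with an interaction term. No member passed the test, where 0.0119% of all genes did (0.00593% with a positive and 0.00593% with a negative term), and 4 members had an unadjusted p under 0.05, against 10.2% of all genes. The difference in response was 0.30 for Ltbp1 (95% confidence interval 0.096 to 0.509, adjusted p = 0.328), -1.43 for Ltbp2 (-2.72 to -0.15, adjusted p = 0.438), -0.35 for Ltbp3 (adjusted p = 0.311) and -0.31 for Ltbp4 (adjusted p = 0.309). That a member passed the test under AAV9-GFP and not under AAV9-Cardinal was therefore not shown to be a difference between the viruses. Without AAV9-Cardinal TAC replicate 1 the term for Ltbp2 was -2.08 (adjusted p = 0.0383).

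The rest of the pathway was read from 6 lists of genes by function. Over all genes tested, 8.49% rose under AAV9-GFP and 3.10% under AAV9-Cardinal, with median log2 fold changes of 0.005 and -0.0005. In AAV9-GFP hearts after TAC, the proteins that hold the latent complex in the matrix rose in 6 of 10 cases and fell in none, with a median log2 fold change of 0.77. Fbln2, a fibulin of basement membranes and elastic fibres, was at 50.2 ± 2.78 CPM in sham and 102 ± 6.99 CPM in TAC hearts, a log2 fold change of 1.03 (adjusted p = 3.98e-05). Mfap4, a microfibril protein, had a log2 fold change of 2.38 (adjusted p = 5.92e-05), and Emilin1, which binds the TGF-beta precursor, one of 0.81 (adjusted p = 0.000182). Fbn1, the fibrillin to which the latent binding proteins attach, was at 30.1 ± 0.922 and 82.0 ± 16.2 CPM, a log2 fold change of 1.45 (adjusted p = 0.000197). In AAV9-Cardinal hearts 4 of the 10 rose after TAC and the median was 0.36, among them Fbln2 at 0.67 (adjusted p = 0.0046), Mfap4 at 1.13 (adjusted p = 0.0303) and Emilin1 at 0.46 (adjusted p = 0.0271), while Fbn1 had a value of 0.55 (adjusted p = 0.111). Without AAV9-Cardinal TAC replicate 1 Mfap4 was at 0.93 and missed the threshold (adjusted p = 0.0612). The count of 4 was 1 without AAV9-Cardinal sham replicate 2, sham replicate 4 or TAC replicate 5, and 2 without AAV9-Cardinal sham replicate 1, TAC replicate 1 or TAC replicate 6.

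Of 18 tested genes that release or activate the ligand, 8 rose in AAV9-GFP hearts and none fell (8.49% of all genes rose), with a median log2 fold change of 0.30. They included Plat (0.31, adjusted p = 0.00457), the plasminogen activator of tissue, Bmp1 (0.29, adjusted p = 0.00515), a protease that cuts latent binding proteins, and Mmp14 (0.66, adjusted p = 0.00533), a membrane-bound metalloprotease. In AAV9-Cardinal hearts 2 of the 18 rose, against 3.10% of all genes, and the values of these 3 genes were 0.0094, 0.17 and 0.29, none of which passed the test. Of 6 tested proteins that bind free ligand, 5 rose in AAV9-GFP hearts and 2 in AAV9-Cardinal hearts, with medians of 0.74 and 0.28. Bgn (biglycan), a small proteoglycan, rose by 1.26 (adjusted p = 0.000148) and by 0.68 (adjusted p = 0.0256) on the log2 scale, and Aspn (asporin) by 0.74 (adjusted p = 0.00418) and by 0.77 (adjusted p = 0.0111). Vasn (vasorin) had log2 fold changes of 0.47 (adjusted p = 0.0120) and 0.23 (adjusted p = 0.268). Under AAV9-Cardinal the release list had 0 to 3 calls with each mouse left out in turn, 1 or none without any of its mice but TAC replicate 1, and the free ligand binders had 1 without its sham replicate 1, 2 or 4 or TAC replicate 5. Under AAV9-GFP the free ligand binders had 3 without sham replicate 4 or TAC replicate 3.

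Other lists covered the steps between the receptor and the nucleus. Of 13 genes for coreceptors and regulators of the receptors, 4 rose in AAV9-GFP hearts (8.49% of all genes did) and none in AAV9-Cardinal hearts (3.10%). Among them Pmepa1 (0.73, adjusted p = 0.00308), Bambi (0.85, adjusted p = 0.005) and Cd109 (1.09, adjusted p = 0.013) are each known to restrain TGF-beta signalling. Of 15 intracellular relays, Tgif1, a repressor that binds Smads, was the only one that rose in AAV9-GFP hearts, with a log2 fold change of 0.88 (adjusted p = 0.0163), a share below that of all genes, and none passed in AAV9-Cardinal hearts. Tgif1 missed the threshold without AAV9-GFP sham replicate 1, sham replicate 3 or TAC replicate 3. The median of the relays was 0.06 under AAV9-GFP and 0.05 under AAV9-Cardinal.

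Of 22 tested genes known to respond to TGF-beta, 14 rose in AAV9-GFP hearts and 7 in AAV9-Cardinal hearts, against 8.49% and 3.10% of all genes, and none fell in either. Postn (periostin), a matrix protein of activated fibroblasts, was at 23.0 ± 0.768 CPM in sham and 168 ± 37.9 CPM in TAC hearts of AAV9-GFP, a log2 fold change of 2.86 (adjusted p = 2.01e-05). In AAV9-Cardinal hearts it was at 23.7 ± 2.63 and 61.5 ± 36.1 CPM, a log2 fold change of 1.37 (adjusted p = 0.0111), with replicate 1 at 115 CPM and the other TAC mice between 38.2 and 51.2 CPM. Cilp, a matrix protein that binds TGF-beta, had log2 fold changes of 3.62 (adjusted p = 2.75e-05) and 2.03 (adjusted p = 0.0078). Without replicate 1 the AAV9-Cardinal values were 0.88 for Postn and 1.41 for Cilp (adjusted p = 0.00493 for each). Acta2, the smooth muscle actin of myofibroblasts, had a log2 fold change of -0.69 in AAV9-GFP hearts (adjusted p = 0.306). The median of the list was 1.10 under AAV9-GFP and 0.58 under AAV9-Cardinal, and the count of 7 was 4 without AAV9-Cardinal sham replicate 2 or TAC replicate 5.

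Between AAV9-Cardinal and AAV9-GFP hearts after TAC, no gene of the 6 lists passed the test. The medians of the matrix anchors of the latent complex, of the free ligand binders and of the TGF-beta responsive genes were -0.47, -0.34 and -0.46, against -0.0065 over all genes tested, and those of the coreceptors and of the relays were -0.03 and -0.0023. Without AAV9-Cardinal TAC replicate 1, 6 of the matrix anchors of the latent complex, 7 of the TGF-beta responsive genes, 3 of the free ligand binders and 1 gene of the release list were lower with AAV9-Cardinal and 1 TGF-beta responsive gene was higher. The medians of the anchors, the free ligand binders and the responsive genes were then -0.62, -0.56 and -0.48. The share of all genes that passed in that fit is not given here, so these counts have no background beside them. With each of the 16 mice left out in turn, lower genes numbered 0 to 6 among the anchors. Among the responsive genes they numbered 0 to 7, and among the free ligand binders 0 to 3. In the same comparison of all 8 TAC mice, all 8 cardiomyocyte markers had positive log2 fold changes (median 0.23), and all 8 fibroblast and all 8 macrophage markers had negative ones (medians -0.23 and -0.21). Positive values were held by 1 of 8 smooth muscle and pericyte markers (median -0.23) and 2 of 8 endothelial markers (median -0.08). They were held by 0 of 4 tested platelet, 0 of 5 red blood cell, 1 of 3 mesothelial and 1 of 3 atrial markers. None of these markers passed the test, and their part in the lists' medians or in the members' values was not tested.

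**Figure D4:**
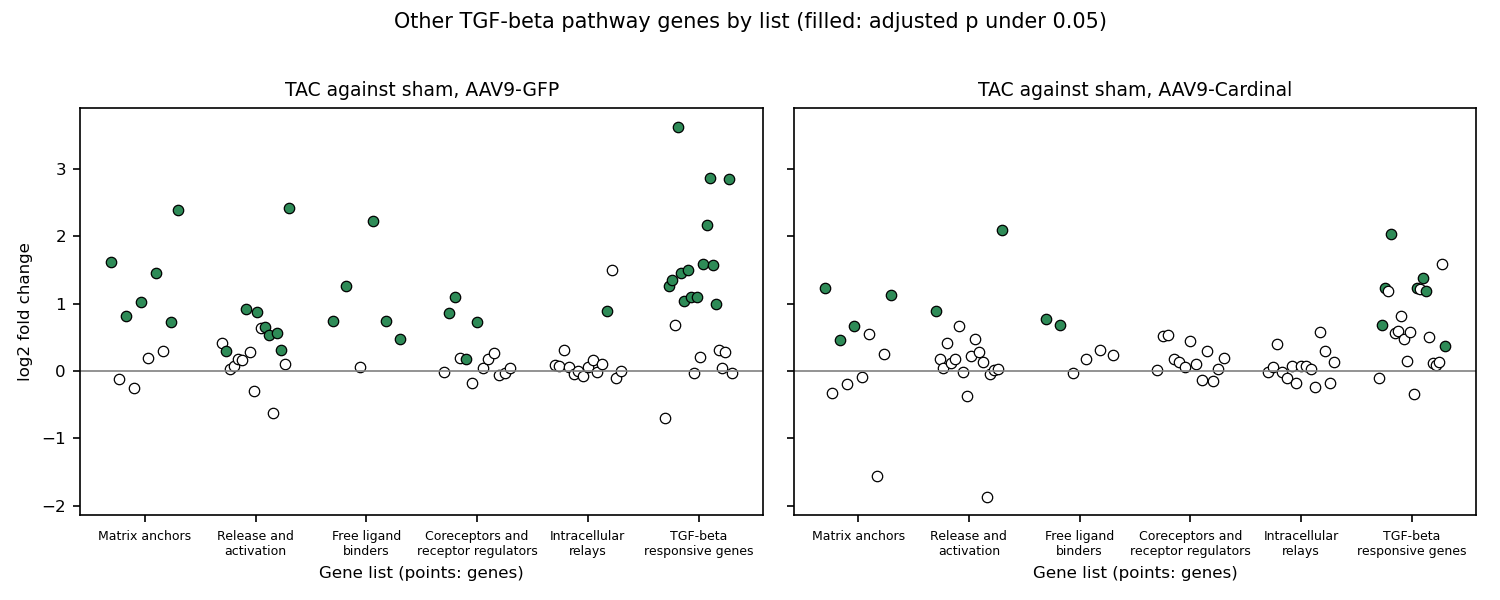
Log2 fold change of every tested gene of the 6 pathway lists after TAC under AAV9-GFP and under AAV9-Cardinal, with a point for each gene, filled where it passed the test. The list medians under AAV9-GFP run from 0.06 for the intracellular relays to 1.10 for the TGF-beta responsive genes, and those under AAV9-Cardinal from 0.05 to 0.58.

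Markers of cell types moved with TAC as well. The 8 cardiomyocyte markers summed to between 46420 and 49040 CPM in AAV9-GFP sham and between 35490 and 42500 CPM in AAV9-GFP TAC hearts, and 6 of the 8 fell. The 8 fibroblast markers, from cells that make much of the matrix described here, summed to between 970 and 1130 CPM in sham and between 969 and 1249 CPM in TAC hearts, and Lum, Col1a1 and Mfap5 rose. These lists share genes and are not separate observations. The markers Lum and Dcn are also free ligand binders, and Col1a1 is also a TGF-beta responsive gene. Bgn is in both of those pathway lists. The 8 endothelial markers summed to between 483 and 590 CPM and between 563 and 684 CPM, with 3 that rose, and the 8 macrophage markers to between 155 and 186 CPM and between 178 and 229 CPM, with 2 that rose. For the smooth muscle and pericyte markers 4 of 8 rose and 1 fell, with sums of 952 to 1033 CPM and 876 to 933 CPM. In AAV9-Cardinal hearts the cardiomyocyte sum was between 44590 and 49010 CPM after sham and between 42210 and 46940 CPM after TAC, and 1 of the 8 markers, Pln, fell. The part of these shifts in the members' changes was not tested.

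The members' highest and lowest values were spread unevenly over the mice in AAV9-GFP TAC hearts. There replicates 1 and 3 held 8 and 7 of them and replicates 4 and 7 held 2 and 3. In the other groups each mouse held 3 to 7. In AAV9-GFP TAC hearts replicate 3 was the highest mouse for Tgfb1, Tgfb2, Tgfb3, Ltbp2 and Ltbp3 and the lowest for Ltbp1 and Tgfbr3, while replicate 1 was the lowest for 7 of the 10. In AAV9-Cardinal TAC hearts replicate 1 was the highest for 5 members and replicate 4 the lowest for 5. As deviations from the group means over 16 mice, the log2 CPM of Ltbp2 ran most closely with that of Tgfb3 (Pearson r = 0.71) and of Ltbp3 (r = 0.70), and Tgfb2 ran opposite to Ltbp1 (r = -0.61). Among 14292 tested genes whose mean was 1 CPM or more, the closest to Ltbp2 were Anxa7 (r = 0.96), Col1a2 (r = 0.94), a chain of type I collagen, and Svep1 (r = 0.93), a large matrix protein. The closest to Tgfb2 were Sorbs2 (r = 0.89), 6430562O15Rik (r = 0.89) and Zwint (r = 0.86), and to Tgfbr1 were Usp31 (r = 0.92), Ahctf1 (r = 0.90) and Stag2 (r = 0.88). These correlations are descriptions: the values compared share a library and a mouse, and they include the mice that stood apart.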

How the data were processed

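The table the authors deposited holds unnormalized counts for each Ensembl gene, with 1 column for each of the 16 mice. The submitters' processing notes name FastQC, HISAT2 2.1.0, edgeR 3.26.1 and GRCm38. The counting program, annotation, use of strand and treatment of multi-mapping reads are not given in the sources used here. GENCODE M21 named 55480 of the 55573 genes.

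Counts were normalized by TMM, filtered with filterByExpr and fitted by the quasi-likelihood model of edgeR 4.0.16 (R 4.3.3) over all 16 mice, with Benjamini-Hochberg adjustment over 16857 genes and a threshold of 0.05. Separate samples are mice, but the labels say nothing of litters or batches. Single values were compared by exact permutation (70 labelings). Correlations used log2 CPM (prior count 2). On simulated data the fit for AAV9-GFP TAC against sham, over 16650 genes, recovered 70% of genes given a 2-fold change and 44% of genes given a 1.5-fold change, and 3 further calls were false.

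The members and lists were chosen with earlier results of these data known. All members were named, and from each list the 3 called genes with the smallest adjusted p in AAV9-GFP hearts, except for 1 that is counted but not reported here. Fbn1 and Acta2 were added after their values were seen. A gene was put among its nearest by Pearson r. Alternatives were DESeq2 1.42.0, RLE factors, 2 other filters, a robust fit, mitochondrial genes left out, the 8 mice compared alone, raw shares without length, mouse number as a block and each mouse left out in turn. The list counts under each alternative, and the list genes without AAV9-Cardinal TAC replicate 1, were added after seeing the data. Of 16 same-numbered pairs of mice, correlations of deviations lay between -0.04 and 0.211 (median 0.054) and 4 were over 0.1, all between mice numbered 1. Of 80 differently numbered pairs from 2 groups, 4 were over 0.1 (median -0.013). The same-numbered mice were thus somewhat more alike. The labels do not say that numbers mark pairs, so mouse number was used as a block only among the alternatives.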

Additional observations from a re-analysis of the deposited data

Results flagged for a closer look

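In 5 of 52 groups of 4 values, a single mouse lay farther from the others than Dixon's test allows at the 95% level, which chance does in about 1 in 20 groups. Ltbp2 was at 18.0 CPM in AAV9-GFP TAC replicate 3, where the other 3 mice were between 8.87 and 9.80 CPM. Its value in replicate 1 of AAV9-Cardinal TAC was 8.41 CPM, where the others were between 2.21 and 2.89 CPM. In that same mouse Cardinal (Gm12295) was at 93.9 CPM, against 18.3 to 20.6 CPM in the others of its group. Tgfbr2 was at 31.4 CPM in AAV9-Cardinal sham replicate 4, against 37.6 to 38.6 CPM, and that mouse also had the smallest library, with a total of 16440000 counts (to 4 digits) against 21600000 to 21790000. AAV9-Cardinal sham replicate 4 was the lowest of its group for 6 of the 10 members and the highest for none.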

How the results depend on the processing

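No member that passed a test in any setting changed sign there. Signs did change for members near 0 that passed no test: Ltbp3 in TAC against sham under AAV9-Cardinal (0.0067 with mouse number as a block), Tgfbr1 between the viruses after TAC (up to 0.12) and in its interaction (up to 0.07), and all members but Tgfbr3 between the viruses in sham hearts. In TAC against sham under AAV9-GFP, 8 members passed, and 7 to 8 did under the alternatives other than leaving out mice and 6 to 9 with each mouse left out. Tgfb2 and the 4 latent binding proteins passed in all of these. Under AAV9-Cardinal the count of 2 was 1 with the 8 mice compared alone (Ltbp2 at an adjusted p of 0.0534) and 1 to 2 with each mouse left out. For AAV9-Cardinal against AAV9-GFP after TAC, where 0 passed, DESeq2 called 3 (Ltbp1, Ltbp3 and Ltbp4), a minimum of 1 CPM in 4 mice called 1 (Ltbp4, adjusted p = 0.0499), and leaving out each mouse called 0 to 4, with 4 without AAV9-Cardinal TAC replicate 1. For the interaction DESeq2 called 1 (Ltbp4, -0.31, adjusted p = 0.0387) of the 4 members to which it gave an adjusted p, and leaving out each mouse called 0 to 1. In sham hearts the count was 0 throughout. The cause of these moves was not tested. The shares of all genes that passed under the alternatives are not given here, so the members' counts there have no background beside them.

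With mouse number as a block the count under AAV9-Cardinal was 0 (Ltbp1 and Ltbp2 at 0.0944), and that under AAV9-GFP was 7, of which 6 were among the 8. Tgfb3 (0.0758) and Tgfbr2 (0.112) were lost and Tgfbr3 (0.0389) was gained. Numbers 5 and 6 occurred only in AAV9-Cardinal TAC and number 7 only in AAV9-GFP TAC. The block therefore took up these mice, which then added nothing to the comparisons of groups. AAV9-Cardinal TAC rested in that fit on replicates 1 and 4, of which replicate 1 stood apart. The labels do not say whether the numbers mark pairs. Whether the counts fell through pairing or through the loss of these mice was not tested. Shares without division by length put Ltbp4 at 75.9% and 81.6% of the latent binding proteins in AAV9-GFP sham and TAC hearts and Ltbp1 at 15.2% and 7.52%.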
